A study of Homo sapiens with 9 samples.

Results

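The second of 3 p300 libraries from irradiated PC3 cells treated with MnTE-2-PyP gave the longest peak list of the series, and most of its peaks were found nowhere else. Of its 10059 peaks, 8638 (85.9%) overlapped no peak of any of the other 4 lists by 1 bp or more and are called private here. These members were chosen by peak position alone, columns of chromosome, start and end. The other 1421 are called shared. The 5 lists held 19861 peaks in all. Of the 9802 peaks of the other 4 lists, 64.5% were private by the same rule. Since the positions chose the members, these counts describe the set and are not a result of a test.

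p300, encoded by EP300, is an acetyltransferase that transcription factors bring to enhancers and promoters, where it acetylates histones and helps to start transcription. It does not recognise DNA sequence itself and is found where transcription factors bind, often in gene-dense parts of the genome. PC3 is an established line from a human prostate carcinoma metastasis. It has lost its Y chromosome and carries extra copies of the long arm of chromosome 8. MnTE-2-PyP, named T2E in the labels, is a manganese porphyrin that removes superoxide.

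The treated cells had 30 µM MnTE-2-PyP (the labels write µm) for 24 h and the untreated cells had none. Both groups then received 20 Gy and were fixed 1 h later, so irradiation is common to every library, and every sample is the same line. There were 3 treated and 2 untreated p300 libraries, each with its own peak list, and 4 input libraries that were not analysed here. The labels call the libraries biological replicates.

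The lists differed in length and calling. Treated lists 1, 2 and 3 held 4922, 10059 and 528 peaks, and untreated lists 1 and 2 held 2313 and 2039. Read depth behind these lists is unknown, because they hold no read counts, and a deeper library usually gives more peaks. The smallest peak width was 193, 291 and 200 bp in treated lists 1, 2 and 3, against 199 and 332 bp in the untreated lists. The lowest peak score, a value per peak on an unnamed scale, was 3.04, 2.02 and 2.16 in the treated lists and 3.04 and 2.02 in the untreated lists. Apart from these lowest values, scores and widths of peaks were therefore compared within a list. Between lists, only the differences and ratios found within each list were set side by side. The exception is an alternative run whose score cut, 5.90, came from the peaks of all lists together. Peak names carry a run identifier that treated list 2 shares with no other list. Treated list 1 shares one with untreated list 1, and treated list 3 with untreated list 2. The share of private peaks in a list was 72.3%, 85.9% and 15.3% in treated lists 1, 2 and 3 and 57.1% and 66.8% in untreated lists 1 and 2. The lists differ in length, so each can meet a different number of foreign peaks. The part of length in these shares was not tested. With every list reduced to its 528 top-scoring peaks, 153 of 528 peaks, or 29.0% (Wilson interval 25.3 to 33.0%), were private in treated list 2, against 26.3% and 46.6% in treated lists 1 and 3 and 34.7% and 56.3% in untreated lists 1 and 2. At that length treated list 2 no longer held the largest private share. The reduction also keeps only the highest scores, so list length and score cannot be told apart here.

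The private peaks were narrow. Their median width was 313 bp (95% binomial interval of the median 310 to 315), against 404 bp (393 to 414) for the shared peaks. The medians differed by -91 bp and their intervals did not overlap. Such intervals cover counting error over peaks and not the spread between libraries. Width is end minus start, the positions that chose the members, and a narrower peak has less chance to meet another by 1 bp. The width contrast is therefore a description and not independent of the rule. The middle of the private distribution ran from 291 to 394 bp between its quartiles, and that of the shared peaks from 320 to 501 bp. At the narrowest width in the list, 291 bp, there were 2942 private peaks, or 34.1% (Wilson interval 33.1 to 35.1%), against 130 shared peaks, or 9.15% (7.76 to 10.8%). The share of private peaks fell with each step in width. It was 95.8% at 291 bp, 87.3% from 292 bp to below 350 bp, 82.6% from there to below 450 bp and 76.7% from there to below 700 bp. Among the 291 peaks of 700 bp or more it was 41.9% (36.4 to 47.7%).

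**Figure D1:**
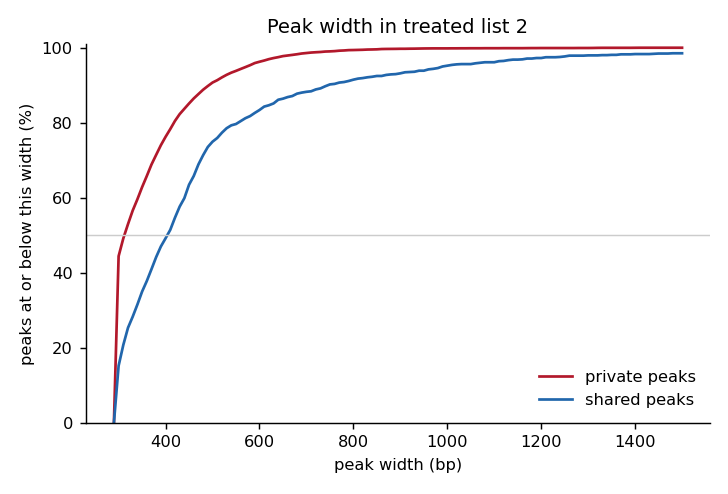
Cumulative share of peaks (y axis, %) at or below a given width (x axis, bp) for private (red) and shared (blue) peaks of treated list 2. The grey line marks the median, reached at 313 bp by private and at 404 bp by shared peaks. The red curve rises from 0% at 290 bp to 44.4% at 300 bp, and 34.1% of private peaks have the narrowest width.

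Wide private peaks were few but not absent. There were 122 of 700 bp or more, or 1.41% (1.18 to 1.68%) of the private peaks, against 169 shared ones, or 11.9% (10.3 to 13.7%). Broad stretches of p300 are often seen where several control elements lie side by side. The widest private peak covered 1407 bp on chromosome 15 at 21215908 to 21217314 (hg19, as all positions here), and a peak of another list lay 0.917 kb away. The next was 1399 bp wide, on chromosome 7 at 150703555 to 150704953, with the nearest foreign peak 70.2 kb away. Of the 10 widest, 5 lay at gene-rich chromosome ends. A peak of 1324 bp at 1p36 ran over 3320953 to 3322276 of chromosome 1. One of 1318 bp covered 4511520 to 4512837 of chromosome 19, one of 1317 bp covered 142380796 to 142382112 of chromosome 8, one of 1304 bp covered 140779526 to 140780829 of chromosome 9 and one of 1275 bp covered 132981896 to 132983170 of chromosome 12. A pair lay on chromosome 10, at 79555572 to 79556768 and at 80959723 to 80960886, and the last covered 71267003 to 71268179 of chromosome 17. Their score percentile within the list ran from 29.5 for the chromosome 1 peak to 92.8 for the first of the chromosome 10 peaks, with a median of 75.2, and 9 of the 10 ranked above the median private peak.

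Private peaks ranked below the shared peaks of their own list. The median score percentile of private peaks was 47.0, against 82.4 (79.6 to 85.6) for shared peaks, a difference of -35.4 points. Private peaks make up 85.9% of the list, so their median lies near its middle. A percentile of 100 is the highest score of the list. The private median falls on a single tied value, because 687 private peaks, or 7.95%, carry the same score of 4.89, the commonest of the 1169 distinct scores in the list. Among shared peaks 2.25% carry it. The strongest sites of the list were all shared. The 127 highest-scoring peaks each had a partner in another list, and the first private peak stood at rank 128. As a part of list length, the first private peak stood 0.0203%, 1.27% and 2.27% down treated lists 1, 2 and 3, and 0.605% and 3.43% down untreated lists 1 and 2.

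The share of private peaks was nearly flat over most of the ranking and dropped at the top. In the lowest 10% of scores 93.0% of peaks were private (91.2 to 94.4%), and in decile 5 it was 95.1%. The share was 84.9% in decile 8, 83.4% in decile 9 and 41.6% (38.5 to 44.7%) in decile 10. That top decile still held 404 private peaks, or 4.68% of them, against 568 shared peaks, or 40.0%. In decile 10 of the other lists 15.2% and 1.89% were private in treated lists 1 and 3, and 13.8% and 16.2% in untreated lists 1 and 2. The shared peaks themselves were graded. Those found in 1 other list had a median percentile of 60.3 (750 peaks), those in 2 other lists 90.6 (332 peaks), those in 3 96.1 (191 peaks) and those in all 4 97.0 (148 peaks). Width rose along the same order, with medians of 364, 395, 452 and 581.5 bp.

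**Figure D2:**
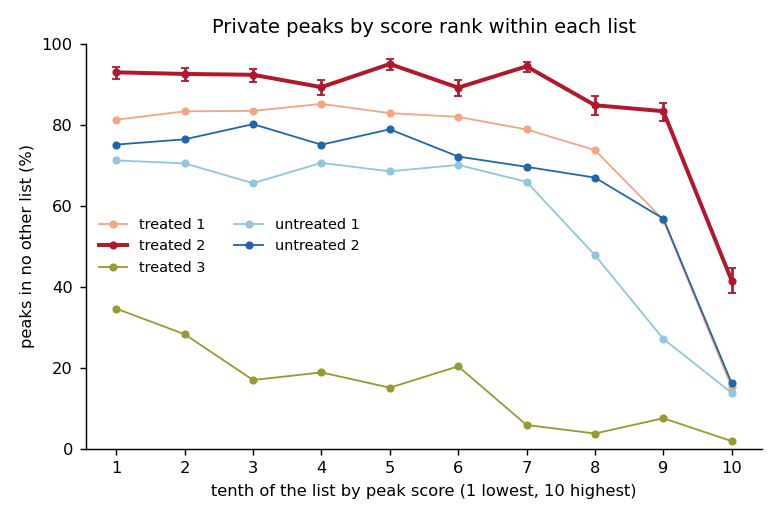
Share of peaks found in no other list (y axis, %) in each decile of peak score within a list (x axis, 1 lowest to 10 highest), 1 line per list, with 95% Wilson intervals for treated list 2. Every line is lowest in decile 10, where treated list 2 (thick red) stands at 41.6%.

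The same direction held in each of the other 4 lists. Private minus shared median width was -40, -91 and -24 bp in treated lists 1, 2 and 3, and -39 and -75 bp in untreated lists 1 and 2. Relative to the shared median the private median was 0.775-fold in treated list 2, against 0.848, 0.903, 0.849 and 0.826 in treated lists 1 and 3 and untreated lists 1 and 2. The difference in median score percentile was -33.1, -35.4 and -26.2 points in treated lists 1, 2 and 3 and -27.8 and -24.8 in the untreated lists. Lower rank and smaller width of private peaks were thus seen in all 5 lists, with the largest differences in treated list 2. The differences in bp, here and between conditions, were not adjusted for the narrowest width, which differs between lists. Between conditions, the width difference was -51.7 ± 35.0 bp in treated lists (SD, n = 3) and -57.0 ± 25.5 bp in untreated lists (SD, n = 2), which differ by less than the spread among treated lists (exact two-sided permutation p = 1, where 0.2 is the smallest p that 2 against 3 lists allow). Within the pairs that share a run identifier, treated minus untreated gave -1 bp for the lists numbered 1 and 51 bp for treated list 3 against untreated list 2.

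The highest-scoring private peaks were scattered over several chromosomes. The first, on chromosome 2 at 230743341 to 230743643, was 303 bp wide with a score of 25.8 and lay 26.2 kb from the nearest foreign peak. The second was 651 bp wide, on chromosome 7 at 142486767 to 142487417, with a score of 25.3. The next pair lay far from any peak of another list. The peak on chromosome 3 at 24078354 to 24078811 (score 21.2) was 1210 kb from the nearest foreign peak, and that on chromosome 12 at 17735069 to 17735474 (score 21.2) was 2031 kb away. The other 6 of the leading 10 began at base 145345121 of chromosome 5, 44570445 of chromosome 20, 125553543 of chromosome 12, 75893908 of chromosome 4, 57794559 of chromosome 3 and 9664469 of chromosome 21, with scores from 19.8 down to 15.5. None of the 10 lay at a gene-rich chromosome end.

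Private peaks were spread over all 24 chromosomes, in proportions unlike those of the shared peaks. Chromosome 19, the most gene-dense human chromosome, held the most per length at 8.01 per Mb, followed by chromosome 20 with 7.43 per Mb, 17 with 7.03, 21 with 5.63 and 1 with 4.02. The fewest were on chromosome Y at 0.131 per Mb, X at 0.698, 4 at 0.901, 9 at 1.16 and 13 at 1.19. Length here is the distance between the outermost peaks of all lists together. On chromosome Y, which PC3 cells have lost, there were 7 private and 20 shared peaks. The share of private among the list's peaks ran from 25.9% on chromosome Y and 69.9% on chromosome 4 to 94.2% on chromosome 11.

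**Figure D3:**
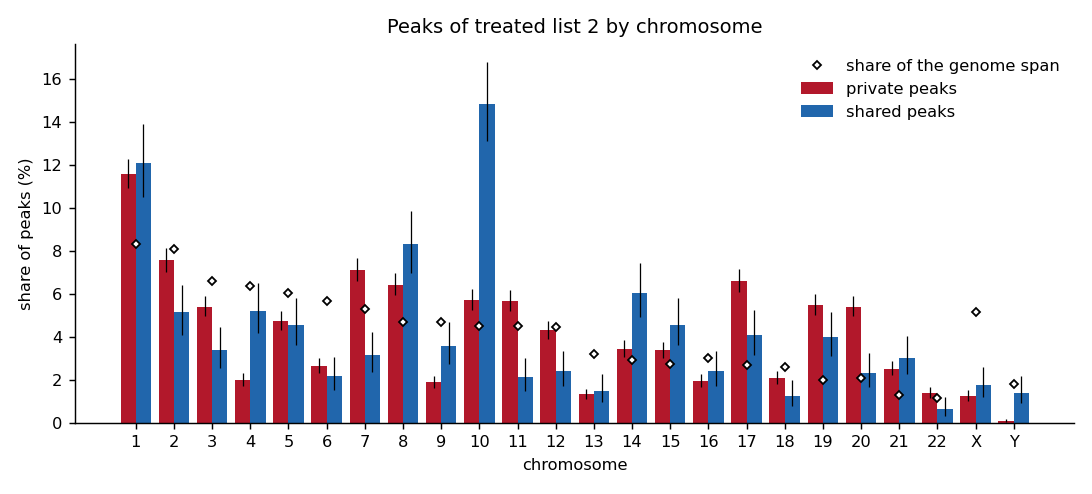
Share of the private (red) and shared (blue) peaks of treated list 2 on each chromosome (y axis, %), with 95% Wilson intervals and the chromosome's part of the genome span (diamonds). Chromosome 10 holds 5.73% of private and 14.8% of shared peaks, and chromosomes 7 and 11 hold more of the private peaks.

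Chromosome 10 showed the widest gap between the 2 classes. It held 495 private peaks, or 5.73% (5.26 to 6.24%), against 211 shared peaks, or 14.8% (13.1 to 16.8%), with 4.52% of the span. In the other lists its share ran from 9.28% to 16.3%. Chromosome 7 went the other way, with 614 private peaks, or 7.11% (6.59 to 7.67%), against 45 shared peaks, or 3.17% (2.37 to 4.21%), and 2.81% to 4.46% in the other lists. Chromosome 11 held 5.67% of private and 2.11% of shared peaks, and 0.947% to 3.78% in the other lists. Chromosome 8, whose long arm is gained in PC3, held 556 private peaks, or 6.44%, against 8.30% of shared peaks and 9.22% to 11.2% of the other lists. The share of private peaks lay above the range of all other lists on 8 chromosomes, namely 2, 3, 7, 11, 12, 18, 20 and 22, and below it on 6, namely 1, 4, 8, 10, 14 and Y. These ranges take all peaks of the other lists, private and shared. On chromosome 20 the whole of treated list 2 held 4.97%, below the 5.10% of untreated list 2. On the other chromosomes named, the whole list also lay outside the range. The gene-poor chromosomes 4, 13 and 18 together held 467 private and 113 shared peaks. Of the 74 shared peaks on chromosome 4, 26 lay within 50 kb of a cluster of regions common to all 5 lists.

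Gene-rich chromosome ends carried a large part of the private peaks. The 17 ends taken here are bands known for high gene and GC content, such as 1p36, 7p22, 8q24, 17q25 and 21q22, cut to 5 Mb each. Base composition, gene content and mappability were not measured here, and their part in these counts was not tested. The 17 ends make up 2.84% of the genome span and held 1451 private peaks, or 16.8% (16.02 to 17.60%), against 155 shared peaks, or 10.9% (9.39 to 12.6%). Without peaks near the 17 clusters of regions common to all 5 lists, the shares were 16.8% of private and 8.87% of shared peaks. The density was 17.1 private peaks per Mb at the ends and 2.86 on the rest of the same chromosomes, a 5.98-fold difference. For shared peaks it was 1.82 and 0.544 per Mb, a 3.35-fold difference. In 16 of the 17 ends private peaks were denser than on the rest of the chromosome, the exception being 19p13 (7 and 7.53 per Mb). The 24 other ends, with 4.01% of the span, held 661 private peaks, or 7.65% (7.11 to 8.23%), against 68 shared peaks, or 4.79% (3.79 to 6.02%).

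The ends differed widely among themselves. The last 5 Mb of 8q24 held 271 private peaks, which is 25.9-fold the density on the rest of chromosome 8, and 1p36 held 192. They were followed by 17q25 with 176, 21q22 with 133, 20q13 with 123, 7p22 with 105 and 12q24 with 86. At the low end 16p13 held 25 and 4p16 held 24. The other lists were not poor at every such end. At 8q24 the other 4 lists together had 310 peaks, and at 1p36 they had 241. At 7p22 they had 16 peaks against 105 private ones, at 16q24 6 against 35, at 9q34 8 against 42 and at 14q32 7 against 27. Over the whole genome there were 0.881 private peaks for each peak of the other 4 lists. At 7p22 the other lists had 6 and 1 peaks in treated lists 1 and 3 and 3 and 6 in untreated lists 1 and 2.

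**Figure D4:**
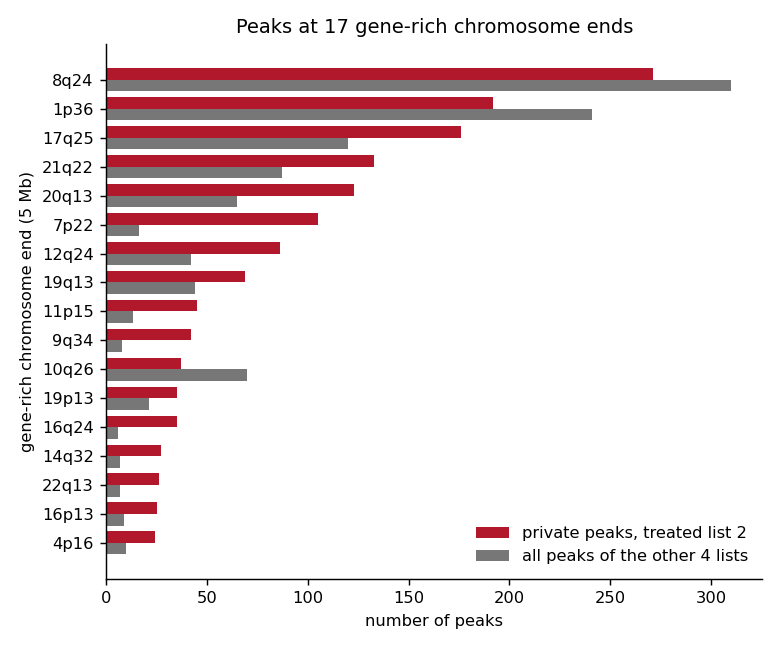
Number of peaks (x axis) at each of 17 gene-rich chromosome ends of 5 Mb (y axis, named by band), for the private peaks of treated list 2 (red) and all peaks of the other 4 lists (grey). Private peaks outnumber the other lists at 14 of the 17 ends, the exceptions being 8q24, 1p36 and 10q26.

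Private peaks at these ends were slightly wider than elsewhere. Their median width was 331 bp (324 to 340) at gene-rich ends, against 310 bp (307 to 313) away from all ends. The share of 700 bp or more was 2.21% (1.57 to 3.10%) at gene-rich ends and 1.24% (1.00 to 1.54%) away from ends. Shared peaks went the same way, with medians of 433 bp (389 to 469) and 397 bp (386 to 409), whose intervals overlap. Of the shared peaks, 16.1% and 11.2% were of 700 bp or more. The median rank of private peaks falls on the tied score in both places, so private peaks above that score were counted. They were 43.5% (41.0 to 46.1%) of the private peaks at gene-rich ends and 46.3% (45.1 to 47.5%) away from ends, with overlapping intervals. By end, the median percentile was below the private median of 47.0 at 7 of 17 ends, equal to it at 9 and above it at 1. It was lowest at 14q32 and 19p13 (33.2) and highest at 16q24 (56.7).

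Across libraries, the share of private peaks at gene-rich ends overlapped between treated and untreated lists. It was 9.44%, 16.8% and 4.94% in treated lists 1, 2 and 3, and 12.1% and 17.8% in untreated lists 1 and 2. Treated lists averaged 10.4% ± 5.99 (SD, n = 3) and untreated lists 14.98% ± 4.04 (SD, n = 2), a difference of -4.59 points that was smaller than the spread among treated lists (exact two-sided permutation p = 0.4). Treated minus untreated was -2.68 points in the pair with lists numbered 1 and -12.9 points for treated list 3 against untreated list 2, where treated list 3 has 4 such peaks of 81. Of the shared peaks, 9.75%, 10.9% and 8.50% lay at these ends in treated lists 1, 2 and 3. In untreated lists 1 and 2 it was 8.86% and 10.9%. The private share was thus above the shared share in treated list 2 and both untreated lists, but not in treated lists 1 and 3.

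In windows of 5 Mb, private peaks were dispersed but not even. Of 616 windows, 579 held a private peak, with a median of 8 per window, and 412 held a shared peak. The fewest windows that together hold 50% of the private peaks numbered 80, against 37 for the shared peaks and 47 for the peaks of the other 4 lists. In 33 windows there were private peaks and no peak of any other list. The fullest 10 windows held 1239 private peaks, or 14.3%. They were led by chromosome 8 from 140 to 145 Mb with 240, chromosome 1 from 0 to 5 Mb with 192, chromosome 17 from 75 to 80 Mb with 156, chromosome 7 from 0 to 5 Mb with 105, chromosome 19 from 5 to 10 Mb with 103 and chromosome 20 from 60 to 65 Mb with 102. The remaining windows were chromosome 21 from 45 to 50 Mb (94), chromosome 19 from 10 to 15 Mb (85), chromosome 10 from 80 to 85 Mb (81) and chromosome 12 from 130 to 135 Mb (81). The same 10 windows held 13.8% of the shared peaks, close to the 14.3% of private peaks. They held 15.3% and 3.70% of the private peaks of treated lists 1 and 3. For untreated lists 1 and 2 it was 15% and 17.4%.

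Some windows took a larger part of the private than of the shared peaks. Chromosome 17 from 75 to 80 Mb held 1.81% of private and 0.422% of shared peaks, the largest excess among the 126 windows with 20 or more private peaks. Next came chromosome 7 from 0 to 5 Mb (1.22% and 0.211%), chromosome 20 from 60 to 65 Mb (1.18% and 0.211%), chromosome 21 from 45 to 50 Mb (1.09% and 0.352%) and chromosome 12 from 130 to 135 Mb (0.938% and 0.211%). The other 5 were on chromosome 19 from 15 to 20 Mb, from 10 to 15 Mb and from 55 to 60 Mb, and on chromosome 7 from 150 to 155 Mb and from 155 to 160 Mb. The last pair held 51 and 48 private peaks and 0 of the 1421 shared peaks each, which allows a share of up to 0.211% (3 counts). Treated list 1 and both untreated lists had peaks in all of these windows. Treated list 3 had 0 peaks in several of them, among them chromosome 17 from 75 to 80 Mb. Chromosome 17 from 75 to 80 Mb held 1.81% of the private peaks and 1.39% of the other 4 lists (136 peaks), and chromosome 19 from 10 to 15 Mb held 85 private peaks and 85 peaks of those lists. Private peaks numbered 105 on chromosome 7 from 0 to 5 Mb, against 16 peaks of the other lists, and 102 on chromosome 20 from 60 to 65 Mb, against 55. Among windows with 20 or more private peaks, the ratio of private peaks to peaks of the other 4 lists was highest on chromosome 10 from 130 to 135 Mb (35 against 2), chromosome 7 from 75 to 80 Mb (21 against 2) and chromosome 2 from 235 to 240 Mb (41 against 4).

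Other windows took a larger part of the shared than of the private peaks, led by a pair on chromosome 10. Chromosome 10 from 80 to 85 Mb held 81 private peaks (0.938%) and 69 shared peaks (4.86%), and the stretch from 75 to 80 Mb held 54 (0.625%) and 45 (3.17%). The other 4 lists had 390 and 315 peaks there. Treated list 1 alone had 235 and 217, or 4.77% and 4.41% of its peaks. Chromosome 15 from 20 to 25 Mb held 61 private and 43 shared peaks. Private peaks on chromosome 10 from 80 to 85 Mb had a median score percentile of 60.5, against 41.0 for those on chromosome 8 from 140 to 145 Mb.

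The map of private peaks resembled that of one untreated library most. Over the 616 windows the number of private peaks in treated list 2 correlated with that in untreated list 2 at Pearson r = 0.89 (Spearman rho = 0.70). With untreated list 1 it was r = 0.69 (rho = 0.56) and with treated list 1 r = 0.63 (rho = 0.66). With treated list 3, which has 81 private peaks, it was r = 0.17. Without the 10 fullest windows the values were 0.79 for untreated list 2, 0.60 for untreated list 1 and 0.54 for treated list 1. These are descriptions over windows that share gene density, base composition and copy number, and they say nothing of single sites, since by the rule no private peak meets another. Treated list 2 and untreated list 2 do not share a run identifier. Their lowest scores, 2.02 in both, were the lowest of the series, and their smallest peak widths, 291 and 332 bp, were the largest.

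**Figure D5:**
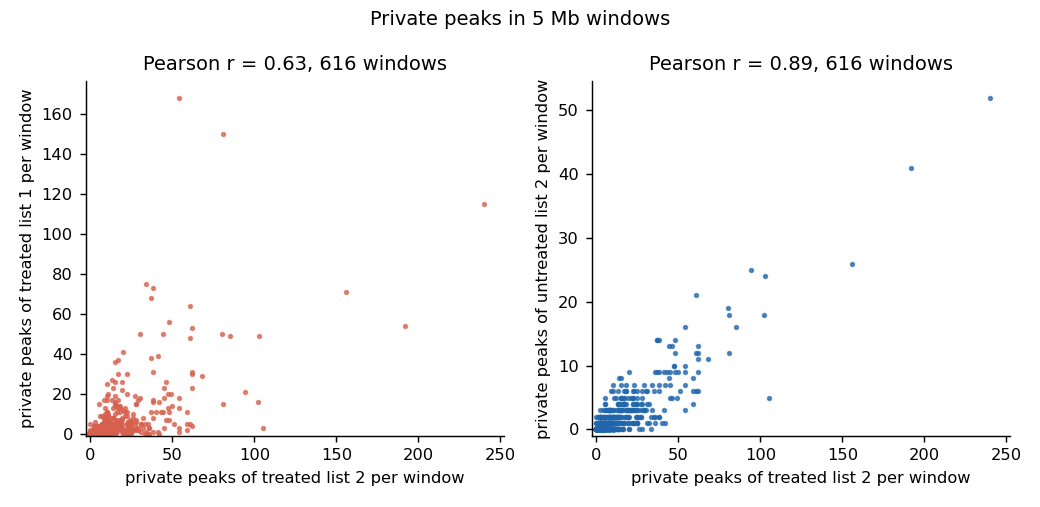
Private peaks per 5 Mb window in treated list 2 (x axis) against those in treated list 1 (left) and untreated list 2 (right), each point 1 of 616 windows. The points follow a line more closely on the right (r = 0.89) than on the left (r = 0.63), where windows of chromosome 10 stand above the rest.

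Few private peaks were near misses. The median distance to the nearest peak of another list was 70.2 kb, with quartiles of 14.2 and 281.1 kb. Another list had a peak within 0.5 kb of 247 private peaks, or 2.86%, within 1 kb of 423, or 4.90% (4.46 to 5.37%), and within 10 kb of 1814, or 21%. A further 606, or 7.02%, lay more than 1 Mb from any peak of another list. At the edge of the rule, the private peak on chromosome 2 at 157184416 to 157184710 touched a foreign peak with 0 bp between them, and those on chromosome 14 at 90979954 and chromosome 10 at 56022408 were 1 and 8 bp away. The shared peaks with the smallest overlap met their partner by 8, 9 and 11 bp, on chromosomes 17, 20 and 3. Width fell with distance, from a median of 351 bp (337 to 365) within 1 kb of a foreign peak to 294 bp (292 to 296) beyond 1 Mb, with 341, 318 and 299 bp between. Peaks above the tied score were 48.2% (43.5 to 53.0%) within 1 kb, 48.5%, 45.3% and 44.5% in the classes between and 43.4% (39.5 to 47.4%) beyond 1 Mb.

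Between 20.8% and 28.2% of the peaks of each other list lay close to this set. A private peak of treated list 2 lay within 10 kb of 28.2% and 20.8% of the peaks of treated lists 1 and 3, against 25.6% and 28.0% of those of untreated lists 1 and 2. The groups overlap at that distance. Within 1 kb the shares were 4.79% (4.23 to 5.43%) and 3.79% (2.47 to 5.78%) in treated lists 1 and 3, against 5.02% (4.20 to 5.98%) and 5.93% (4.99 to 7.05%) in untreated lists 1 and 2, with overlapping Wilson intervals. Among the shared peaks, 990 met a peak of treated list 1 and 358 one of treated list 3, against 695 with untreated list 1 and 536 with untreated list 2. Those lists held 4922, 528, 2313 and 2039 peaks in that order. The counts are not adjusted for these lengths and do not rank the lists by likeness.

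Most private peaks had no other private peak within 10 kb. Private peaks with gaps of 10 kb or less were joined into loci, which gave 7285 loci, of which 6346 held a single peak. Shared peaks and peaks of other lists were not counted in these loci. Of the gaps between neighbouring peaks, 15.7% were within 10 kb for private peaks. It was 26.9% for shared peaks and 20.1% for the whole list. There were 2292 private peaks, or 26.5%, in loci of 2 or more, and 34 loci held 5 or more. The longest run was 15 private peaks over 70.6 kb of 1p36, on chromosome 1 at 3262408 to 3332988, where no shared peak lay and where the other lists had 2 and 0 peaks in treated lists 1 and 3 and 0 and 2 in untreated lists 1 and 2. The next was 10 peaks over 32.4 kb on chromosome 8 at 143072056 to 143104494, with 1 peak of untreated list 2 inside. Runs of 8 covered 3494379 to 3517267 of chromosome 1, 142628732 to 142660099 of chromosome 8, 114968696 to 114991514 of chromosome X and 81011527 to 81048139 of chromosome 10. The chromosome 10 and X runs were mixed, with 6 and 5 shared peaks inside and 24 and 16 peaks of the other 4 lists.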

How the data were processed

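Each p300 library has its own peak list, in which the authors deposited the position and name of every peak and a score whose scale is not named. The build hg19 and the peak caller MACS2 are named in the submitters' processing notes. The aligner, calling threshold and matching of inputs were not given in the sources used here. Lists were called per library, and a library's depth, pull-down and caller settings affect how many peaks it has and how wide they are. Coordinates are hg19, counted from 1. The gene table at hand is for another build and was not used, and no sequence of hg19 was read.

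A peak was private where it overlapped no peak of the other 4 lists by 1 bp or more. Scores were turned into percentiles within a list, ties sharing their mean rank. Medians carry distribution-free 95% binomial intervals and shares 95% Wilson intervals, which cover counting error only. Ends, windows and chromosomes were assigned by peak midpoint. Regions in all 5 lists that lay within 50 kb of one another formed recurrent clusters. Treated and untreated lists were compared with exact two-sided permutation tests over the 10 splits of 5 lists. A count of 0 was given a limit of 3 counts of the total. The replicate numbers do not pair the lists, because the lists numbered 2 carry different run identifiers. The permutation p-values place the observed difference among the 10 splits and leave the shared run identifiers aside. The lists are not independent units, because each private set is defined by the peaks of the other 4 lists.

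Named regions followed a rule: the 10 highest-scoring and the 10 widest private peaks, the 10 fullest windows of 5 Mb, the 10 with the largest excess of private over shared share, the 5 densest and 5 sparsest chromosomes, the peaks at the edge of the overlap rule and the longest runs. The share of private peaks above the commonest score, the windows with the highest ratio to the other lists, and those with the largest deficit, were chosen after their values were seen. The members and lists were chosen with earlier results of these data known. Alternatives varied the overlap, the score minimum, the chromosomes, the ends and the lists used. The classification was tested on simulated data. Python 3.11.15, numpy 2.4.6, pandas 2.3.3, scipy 1.17.1 and matplotlib 3.10.9 were used.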

Additional observations from a re-analysis of the deposited data

How the results depend on the processing

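The direction of each difference within treated list 2 held in every alternative run: private peaks were narrower, ranked lower and lay at gene-rich ends more often than shared peaks, except that joining peaks into loci gave no shared value. With scores at or above the pooled median of 5.90, 2831 private peaks were left, the rank difference was -45.6 points and the share at gene-rich ends 14.9% (shared 8.27%). With each list reduced to its 528 top-scoring peaks, 153 were private, the width difference was -30 bp and the share at ends 8.50% (shared 5.33%). Both settings keep only the higher-scoring peaks. The cut at 5.90 also treats the unnamed score scale as common to all lists, which was not tested. At 528 peaks per list the shares rest on 153 private and 375 shared peaks. The rank difference was -38.7 points with 50% overlap and -30.5 with peaks within 500 bp counted as shared. The share at ends was 23.9% with ends of 10 Mb and 24.5% over all chromosome ends, which take in more of the genome. Alternatives added after seeing the data gave 13.4% with peaks within 10 kb counted as 1 locus, and -74 bp and -32.2 points without recurrent clusters. Leaving out 1 other list gave 8687 to 9020 private peaks, -104 to -91 bp, -41.0 to -37.2 points and 16.6% to 16.8%.

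Between treated and untreated lists, leaving out 1 list moved the difference at gene-rich ends over -7.53 to -1.78 points and that in width over -12.3 to 30 bp. The width difference of 5.33 bp turned negative without treated list 1 (-10.8), treated list 3 (-10.0) or untreated list 2 (-12.3). Where 1 untreated list remained, it was assumed to vary like the treated lists. With the replicate number as a block, the differences were -1.86 points and -8.5 bp, the second reversed. The cause was not tested. Pairs with one run identifier gave -7.79 points and 25 bp. Unknown read depth limits every count here.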
